A study of Sus scrofa with 9 samples.

Results

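Adipogenic transcription factors are the DNA-binding proteins that start and carry through the conversion of a preadipocyte into a fat cell. The 9 genes described here were chosen by symbol: *PPARG*, *CEBPA*, *CEBPB*, *CEBPD*, *KLF15*, *KLF5*, *KLF4*, *EBF1* and *EBF2*. All 9 were among the 16562 genes measured, and all 9 had enough reads to be among the 12721 genes tested. The libraries came from primary preadipocytes of the back fat of a female Rongchang piglet, which were induced with insulin, 3-isobutyl 1-methylxanthine (IBMX) and dexamethasone and are labelled day 8 of adipogenic differentiation. There were 3 groups of 3 libraries: a control labelled WT, cells given an overexpression plasmid for lnc*PLAAT3*-AS, an antisense long non-coding RNA of the *PLAAT3* locus, and cells given an siRNA against it (labelled inhibition). The series calls the control blank, whereas the paper calls it a negative control, and no empty-plasmid library entered the analysis. All cell experiments used cells of the same pig, so the p-values measure at most the spread between cultures of 1 animal. The level of lnc*PLAAT3*-AS was not analysed here, so the labels were not checked against it.

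In mouse preadipocyte lines these factors act in a known order. *EBF1* and *EBF2*, early B cell factors, mark cells committed to the fat lineage. *CEBPB* and *CEBPD*, members of the CCAAT/enhancer binding protein (C/EBP) family, are switched on within hours by IBMX and dexamethasone, and *KLF4* and *KLF5*, zinc finger proteins of the Krüppel-like family, act beside them. They lead to *PPARG*, the nuclear receptor that is the master regulator of fat cells, and to *CEBPA*, which sustain each other in the mature cell, where *KLF15* is also high.

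Each library held an estimated count for every gene, not necessarily a whole number, and totals lay between 16724902 and 17495882. The cultures kept a strong fibroblast profile: *COL1A1*, a collagen chain, was the highest of 12 fibroblast markers in the control at 48646 CPM (a gene's counts relative to the library total, scaled between libraries with TMM factors). Of 8 defining adipocyte markers, *LEP* and *AQP7* had no count in the control libraries, *ADIPOQ* had 11 counts and *PLIN1* 12 over the 3 libraries. The others were detected at low levels, among them *CFD* with 635 counts, *FABP4* with 405 and *CIDEC* with 69, and the 8 markers summed to 23.9 to 32.5 CPM. The label of primary adipocyte thus stood beside fat cell markers that were at or near 0 or low. The overexpression libraries lay closer to each other than those of the other groups. The coefficient of variation of the 9 factors was 1.23% to 6.77% there (median 2.70%), against 3.70% to 15.8% in the control and 0.884% to 27.5% after siRNA.

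Compared per length, in the FPKM (fragments relative to gene length and library total) that the authors deposited, the early C/EBP factors stood far above the factors of the mature fat cell. In the control, *CEBPD* had 453 ± 25.6 FPKM (SD, n = 3), above 98.8% of all genes, and *CEBPB* had 147 ± 18.0. *KLF4* followed at 42.2 ± 2.05. The other 6 factors lay within a narrow band of FPKM, from *EBF1* at 6.59 ± 0.585 and *CEBPA* at 6.37 ± 0.639 through *KLF15* at 5.57 ± 0.365, *PPARG* at 4.88 ± 0.308 and *KLF5* at 4.06 ± 0.424 down to *EBF2* at 1.89 ± 0.226. Within this band *EBF1* and *CEBPA* were closer together than their SDs. *CEBPD*, *CEBPB* and *KLF4* also held the first 3 places in both other groups. After siRNA *PPARG* was the lowest of the 9 at 1.09 ± 0.0851 FPKM, under *EBF2* at 2.01 ± 0.382.

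**Figure D1:**
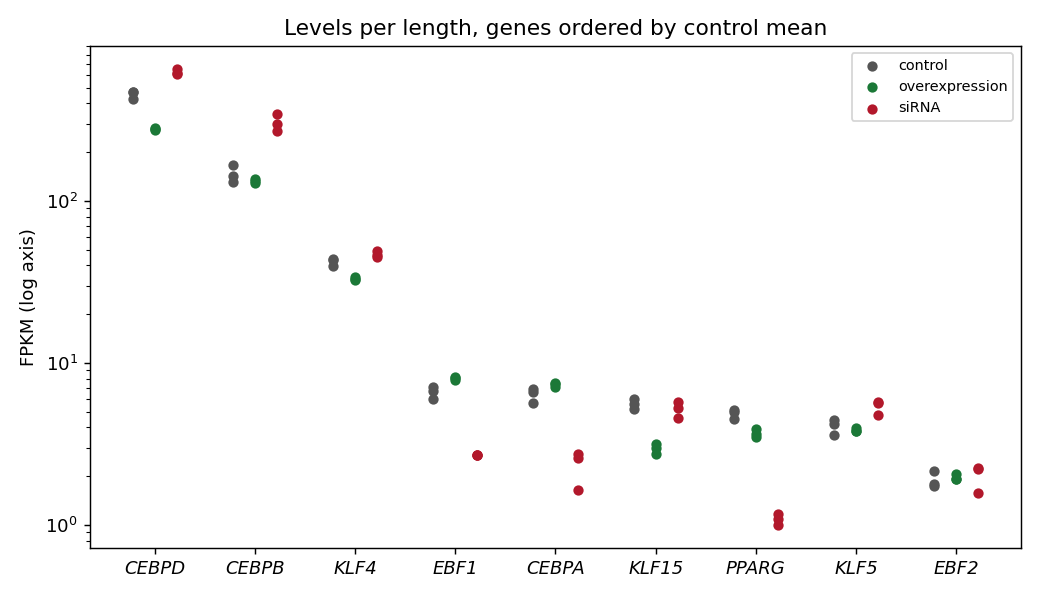
FPKM (level per gene length, log axis) of the 9 factors in each of the 9 libraries, with genes ordered by their control mean and 1 point per library. *CEBPD* and *CEBPB* lie above 100 FPKM in every library, while *PPARG*, *CEBPA* and *EBF1* drop in the siRNA libraries to between 1.00 and 2.74 FPKM.

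A gene was said to rise or fall where edgeR's quasi-likelihood test, adjusted by the Benjamini-Hochberg method over all 12721 genes, gave a p under 0.05. After overexpression 5 of the 9 factors passed, 1 higher and 4 lower than the control, in a comparison where 47.3% of all genes passed (23.9% higher and 23.4% lower). After siRNA 7 of 9 passed, 4 higher and 3 lower, where 59.4% of all genes passed (29.5% higher and 29.9% lower). Between overexpression and siRNA 8 of 9 passed, 3 higher and 5 lower, where 66.7% of all genes passed (32.8% and 33.9%). These shares were not far from those of all genes. A change that also reached 2-fold was seen after siRNA for 1 higher factor (*CEBPB*) and 3 lower ones (*PPARG*, *CEBPA* and *EBF1*), where 15.2% of all genes reached it (7.67% higher and 7.52% lower). Between overexpression and siRNA it was seen for 3 higher (*PPARG*, *CEBPA* and *EBF1*) and 2 lower factors (*CEBPB* and *CEBPD*), against 18.7% of all genes (9.54% higher and 9.17% lower). After overexpression 0 of 9 reached it, also by DESeq2 and at an unadjusted p under 0.05, against 4.50% of all genes (2.61% higher and 1.89% lower). The libraries of the groups did not overlap for 6 factors in the first comparison, 7 in the second and 8 in the third, against 57.1%, 61.3% and 72.5% of all genes. Both comparisons with the control use the same 3 control libraries.

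**Figure D2:**
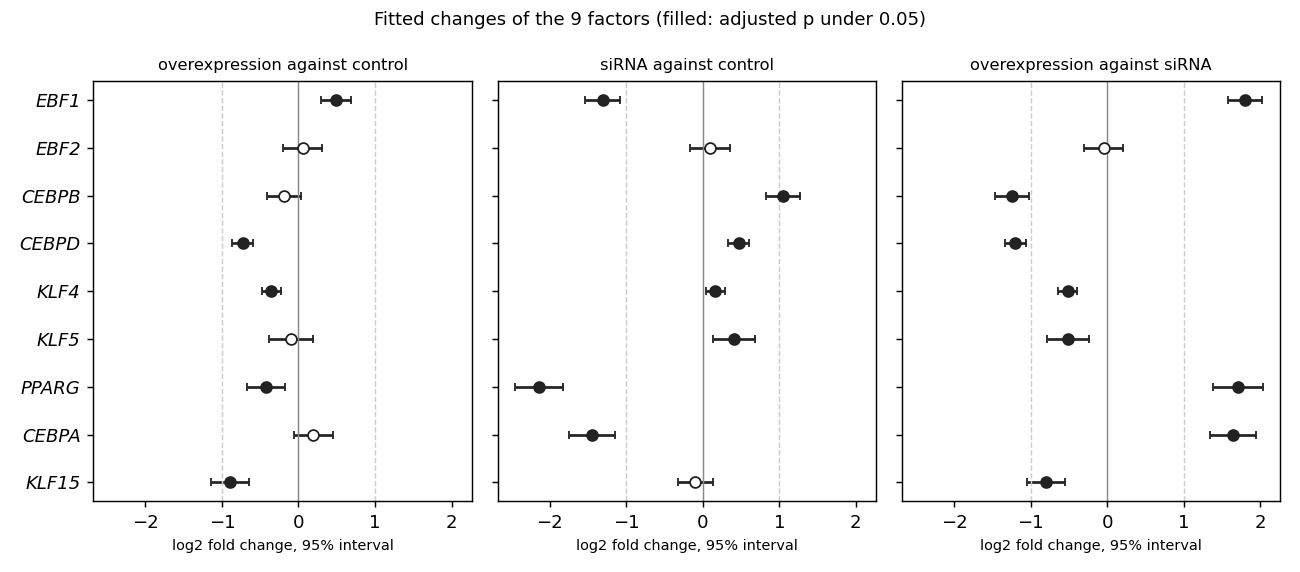
Log2 fold change of each factor with its 95% interval in the 3 comparisons, where filled points have an adjusted p under 0.05 and dashed lines mark 2-fold. After siRNA *PPARG* (-2.14), *CEBPA* (-1.45) and *EBF1* (-1.31) lie on the left and *CEBPB* (1.05) on the right, while *EBF2* stays near 0 in all 3 panels.

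*PPARG*, the nuclear receptor at the centre of fat cell differentiation, was highest in the control, lower after overexpression and lowest after siRNA. The control libraries had 7.63, 7.65 and 7.06 CPM, the overexpression libraries 5.46, 5.85 and 5.28 CPM, and the siRNA libraries 1.67, 1.86 and 1.51 CPM. No 2 of the groups overlapped. After siRNA it fell by 2.14 on the log2 scale (standard error 0.150, adjusted p = 6.99e-11 from edgeR), which is 4.42-fold lower, and it was lower after siRNA in every library although only 26 to 31 reads per library were left. After overexpression the log2 fold change was -0.43 (standard error 0.120, adjusted p = 0.00613). This smaller fall did not pass when the overexpression libraries were summed to 1 (adjusted p = 0.0692), and its adjusted p over the alternatives lay between 0.00336 and 0.0692. In bulk RNA, fewer cells that express a gene and less RNA per cell cannot be told apart.

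*CEBPA*, the C/EBP member of mature fat cells, had 13.4, 15.9 and 16.9 CPM in the control, 17.7, 18.1 and 16.99 CPM after overexpression, and 6.63, 6.41 and 3.84 CPM after siRNA. All siRNA libraries lay below all others, and the lowest overexpression library lay just above the highest control library. *CEBPA* fell after siRNA by 1.45 on the log2 scale (standard error 0.143, adjusted p = 3.05e-08), 2.73-fold. Its log2 fold change after overexpression was 0.20, with a 95% interval from -0.06 to 0.45, and did not pass (adjusted p = 0.195). Between the manipulated groups it was 3.13-fold higher after overexpression (log2 fold change 1.65, adjusted p = 2.75e-09). *CEBPA* and *PPARG* thus both fell after siRNA, whereas after overexpression *PPARG* fell and *CEBPA* did not pass.

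*KLF15*, a Krüppel-like factor induced by glucocorticoids and high in mature fat cells, changed after overexpression and not detectably after siRNA. It had 11.8, 11.03 and 12.8 CPM in the control and 5.92, 6.42 and 6.78 CPM after overexpression, which do not overlap. The siRNA libraries had 11.4, 12.5 and 9.43 CPM and overlapped the control. The fall after overexpression was 1.86-fold (log2 fold change -0.90, standard error 0.119, adjusted p = 4.00e-06) and was larger than that of any other of the 9 factors in that comparison. After siRNA the log2 fold change was -0.10, with an interval from -0.32 to 0.13 (adjusted p = 0.471). The direct comparison of overexpression with siRNA gave -0.80 (adjusted p = 5.50e-06).

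**Figure D3:**
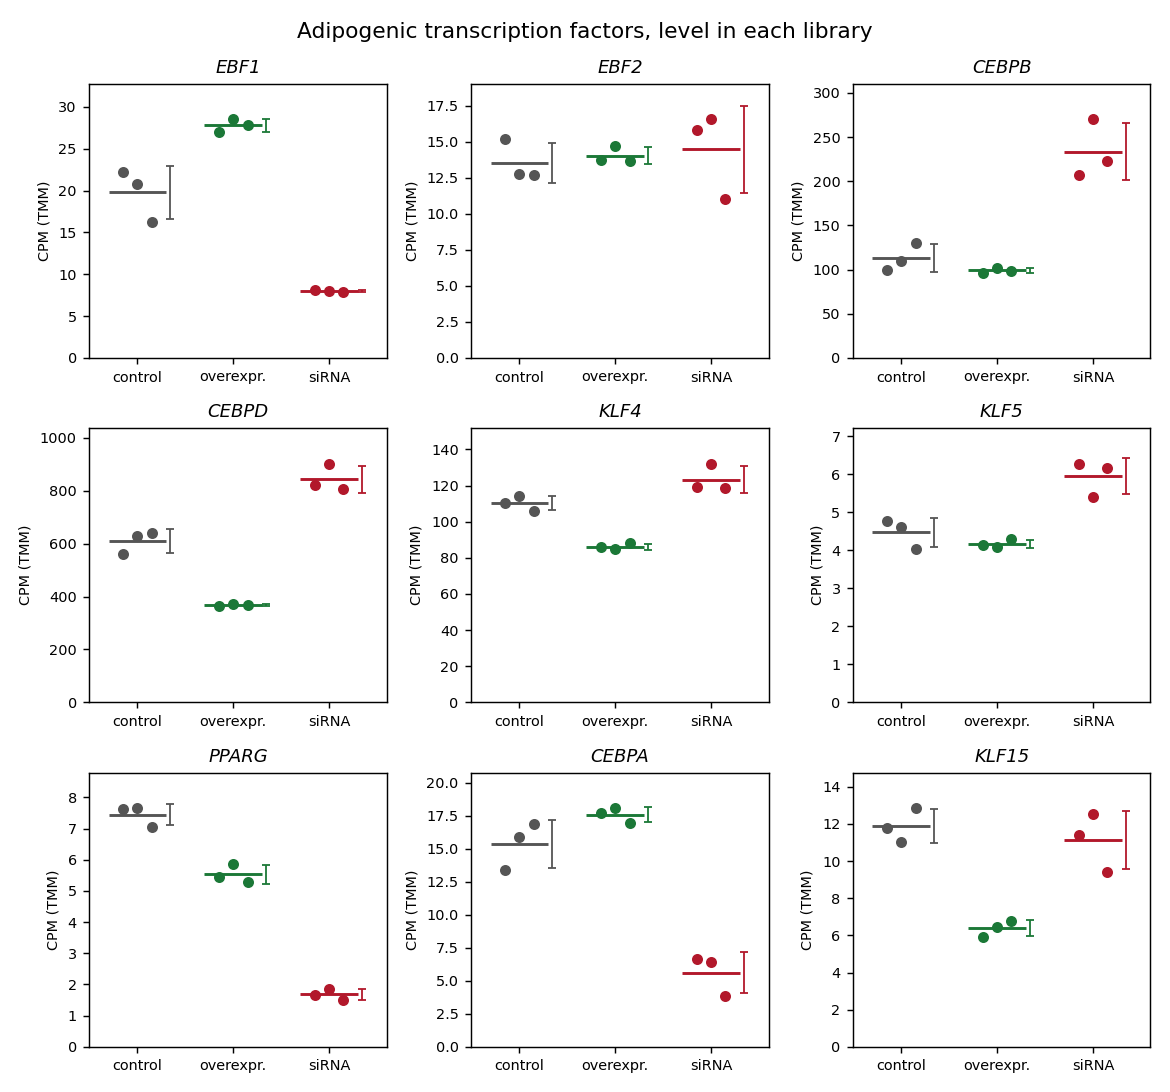
CPM of each factor in each library (points), with the group mean (line) and the SD of 3 libraries (bar beside the points), each axis starting at 0. The panels show *EBF1*, *PPARG* and *CEBPA* lowest after siRNA, *CEBPB*, *CEBPD*, *KLF4* and *KLF5* highest after siRNA, and *KLF15* lowest after overexpression.

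*CEBPB*, the first C/EBP factor to appear when preadipocytes are induced and also a regulator of cytokine genes, was at its highest after siRNA. The siRNA libraries had 208, 270 and 223 CPM, the control libraries 99.0, 110 and 131 CPM, and the overexpression libraries 96.5, 102 and 98.7 CPM. The siRNA libraries lay above all others, and the other groups overlapped. *CEBPB* rose after siRNA 2.06-fold (log2 fold change 1.05, standard error 0.102, adjusted p = 5.66e-07). After overexpression its log2 fold change was -0.19, with an interval from -0.42 to 0.03 (adjusted p = 0.142). Control replicate 1 decided this call, since without it the log2 fold change was -0.29 (adjusted p = 0.0425), with a range of adjusted p over the alternatives from 0.0425 to 0.506.

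*CEBPD*, the partner of *CEBPB* in early adipogenesis and in the acute-phase response, followed an even order of the groups. It had 363, 372 and 369 CPM after overexpression, 559, 630 and 642 CPM in the control, and 821, 902 and 807 CPM after siRNA. No groups overlapped. It fell 1.66-fold after overexpression (log2 fold change -0.73, standard error 0.0646, adjusted p = 1.83e-08) and rose 1.38-fold after siRNA (0.47, standard error 0.0641, adjusted p = 2.31e-06). Between the manipulated groups it was 2.29-fold lower after overexpression (-1.20, adjusted p = 8.15e-13). *CEBPD* and *CEBPB* were the 2 most abundant of the 9 factors and both moved upwards after siRNA, where *CEBPA* moved downwards.

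*KLF4*, an early factor that binds the *CEBPB* promoter in mouse preadipocytes, had 111, 114 and 106 CPM in the control, 86.0, 84.7 and 88.0 CPM after overexpression, and 119, 132 and 119 CPM after siRNA. It fell after overexpression (log2 fold change -0.35, standard error 0.06, adjusted p = 6.78e-05). After siRNA the log2 fold change was 0.16 (standard error 0.0592, adjusted p = 0.0244), a rise of 1.12-fold that passed narrowly. That call was lost without control replicate 3 (log2 fold change 0.13, adjusted p = 0.0670), without siRNA replicate 2 (0.11, adjusted p = 0.120), with the 2 compared groups only (adjusted p = 0.0530) and with the overexpression libraries summed to 1 (adjusted p = 0.0670). The adjusted p over the alternatives lay between 0.0176 and 0.120.

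*KLF5*, which in mice is induced by C/EBP factors and acts on the *PPARG* promoter, had 69 to 106 reads per library. It had 4.76, 4.61 and 4.02 CPM in the control, 4.14, 4.07 and 4.29 CPM after overexpression, and 6.27, 5.39 and 6.17 CPM after siRNA. The siRNA libraries lay above all others. It rose after siRNA 1.33-fold (log2 fold change 0.41, standard error 0.132, adjusted p = 0.0105). After overexpression the log2 fold change was -0.10, with an interval from -0.39 to 0.19 (adjusted p = 0.578). *KLF5* and *PPARG* moved in opposite directions after siRNA.

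*EBF1*, the early B cell factor found in preadipocytes and fat cells, had 22.3, 20.8 and 16.3 CPM in the control, 27.0, 28.5 and 27.8 CPM after overexpression, and 8.06, 7.97 and 7.92 CPM after siRNA. No groups overlapped, and the order was the reverse of that of *CEBPD*. It rose 1.40-fold after overexpression (log2 fold change 0.49, standard error 0.0938, adjusted p = 2.48e-04) and fell 2.48-fold after siRNA (-1.31, standard error 0.109, adjusted p = 1.30e-09). It was the only one of the 9 factors to rise after overexpression. The size of that rise depended on the scale: the ratio of group means was 1.40 in CPM and 1.22 in FPKM, and limma on log2(FPKM + 0.1) gave 0.29 (adjusted p = 0.0137, with a range over the alternatives from 1.9e-05 to 0.0137). For *EBF1* the CPM that went with 1 FPKM varied 1.29-fold over the libraries, from 2.74 to 3.14 in the control and from 3.31 to 3.54 after overexpression, against 1.05-fold to 1.07-fold for the other 8 factors. What made the FPKM follow the counts less closely for this gene was not tested.

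*EBF2*, which marks brown and beige fat precursors in mice, showed no detectable change. It had 15.2, 12.7 and 12.7 CPM in the control, 13.7, 14.7 and 13.7 CPM after overexpression, and 15.8, 16.5 and 11.01 CPM after siRNA. All groups overlapped. The 95% interval of its log2 fold change was -0.20 to 0.31 after overexpression (adjusted p = 0.750), -0.16 to 0.35 after siRNA (adjusted p = 0.524) and -0.30 to 0.21 between these groups (adjusted p = 0.770). The value after siRNA rested on siRNA replicate 3, the lowest library: without it the log2 fold change was 0.26 (adjusted p = 0.0389), with a range of adjusted p over the alternatives from 0.0389 to 0.948. *EBF1* and *EBF2*, closely related genes, therefore took different courses after siRNA.

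Ratios of FPKM within a library do not depend on scaling between libraries, and they show how the balance among the factors differed. For each unit of *CEBPA*, the control libraries had 23.3, 21.7 and 24.3 units of *CEBPB*, the overexpression libraries 17.4, 18.1 and 18.7, and the siRNA libraries 98.1, 133 and 183. The ratio of *CEBPD* to *CEBPA* was 71.4 ± 3.44 (SD of 3 libraries) in the control, and it was 37.8 ± 1.26 in the overexpression and 284 ± 82.5 in the siRNA libraries. In both ratios overexpression lay below and siRNA above the control in every library. *CEBPA* made up 1.05% ± 0.0354 of the summed FPKM of *CEBPA*, *CEBPB* and *CEBPD* in the control, 1.76% ± 0.0557 after overexpression and 0.249% ± 0.0672 in the siRNA libraries. Within the early pair, *CEBPB* per *CEBPD* was 0.324 ± 0.0279 in the control, and it was higher in both manipulated groups, at 0.478 ± 0.00843 after overexpression and 0.484 ± 0.0419 after siRNA.

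The ratio of *CEBPB* to *PPARG* was 30.5 ± 5.76 in the control, 36.2 ± 1.52 after overexpression and 280 ± 28.7 in the siRNA libraries. *CEBPA* per *PPARG* was 1.10 to 1.52 in the control, and lay above this range after overexpression (1.94 to 2.04) and after siRNA (1.63 to 2.51). Both manipulated groups thus had less *PPARG* for each unit of *CEBPA* than the control. *EBF1* per *EBF2* was 3.50 ± 0.257 in the control, 4.11 ± 0.173 after overexpression and 1.38 ± 0.295 in the siRNA libraries. *KLF4* per *KLF15* was 7.60 ± 0.843 in the control, 11.2 ± 0.732 after overexpression and 9.11 ± 0.933 in the siRNA libraries. These ratios combine values tested above and are given as descriptions, without a test.

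**Figure D4:**
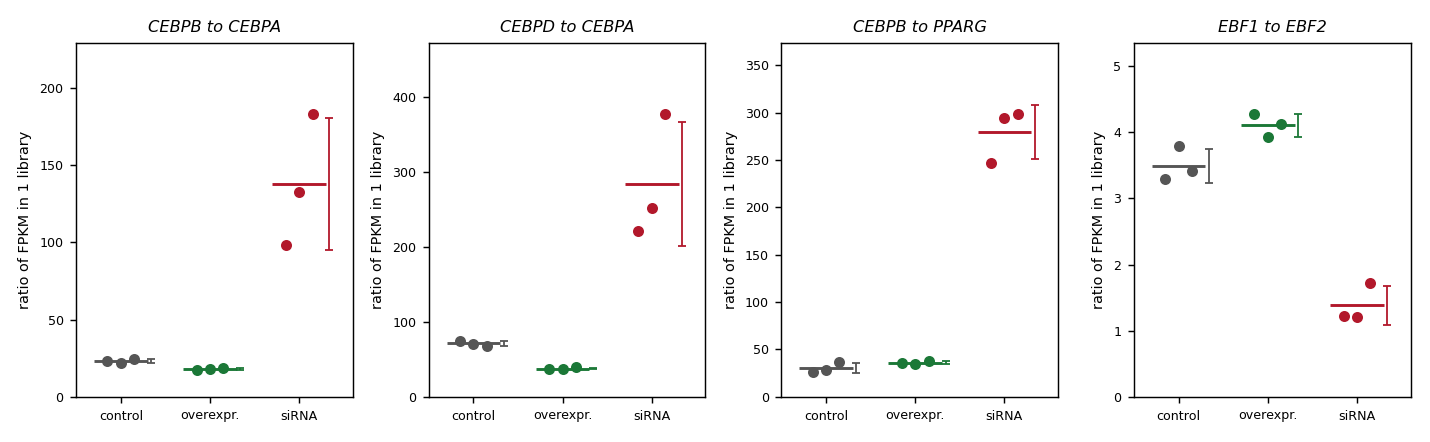
Ratio of the FPKM of one factor to that of another within each library (points), with the group mean (line) and SD of 3 libraries (bar), each axis starting at 0. The ratios of *CEBPB* to *CEBPA*, *CEBPD* to *CEBPA* and *CEBPB* to *PPARG* are highest in the siRNA libraries, and that of *EBF1* to *EBF2* is lowest there.

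For each factor the genes with the most similar course over the 9 libraries were found among genes with a symbol and a mean of at least 5 CPM, by the root mean square difference of log2 CPM centred on each gene's own mean (9562 candidates, or 9563 for *PPARG* and *KLF5*). The 2 nearest to *PPARG* were *THY1*, a surface glycoprotein of fibroblasts (0.111), and *RAB3IL1* (0.115). *CEBPA* was nearest to *MATN4* (0.146) and *RARRES2*, which encodes the adipokine chemerin (0.148). *CEBPB* was nearest to *IGSF8* (0.0612) and *EXOC3L4* (0.0825), and *CEBPD* to *MMP11*, a matrix metalloproteinase (0.0641), and *MRPS18A* (0.0663). These neighbours were different genes for each of the 4 factors. *EBF1* was nearest to *NIBAN1* (0.0771) and *PCDH7* (0.0812), and *EBF2* to *ATP9A* (0.0964) and *CACNA1A* (0.0982). *KLF15* was nearest to the kinase gene *FES* (0.0943) and the ribosomal protein gene *RPS25* (0.102), *KLF5* to *TAF1D* (0.0399) and *DDR2* (0.0623), and *KLF4* to *PLA2G6* (0.0357) and *IQSEC2* (0.0359). Genes that vary little, such as *KLF4*, have small differences from many others, and the differences are given as descriptions.

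Relatives of the 9 factors and genes listed with them moved in both directions. So did all genes, with 23.9% higher and 23.4% lower after overexpression, and 29.5% and 29.9% after siRNA. Of 11 tested other Krüppel-like genes, 4 rose and 5 fell after overexpression (median log2 fold change 0.09, against 0.01 for all genes) and 3 rose and 6 fell after siRNA (median -0.13, against -0.001 for all genes). *KLF7*, which holds back adipogenesis in cell culture, rose after overexpression (0.79, adjusted p = 5.94e-08) and fell after siRNA (-1.09, adjusted p = 2.21e-10). *KLF9*, a glucocorticoid-induced gene, rose after siRNA (0.79, adjusted p = 6.56e-07), and *KLF2*, another inhibitor of *PPARG* in mice, fell after overexpression (-0.95, adjusted p = 3.34e-05). All 3 tested genes listed beside the C/EBP factors (*CEBPG*, *CEBPZ* and *DDIT3*) rose after overexpression. Of these, *DDIT3* pairs with C/EBP proteins and blocks their binding (0.50, adjusted p = 3.19e-06). *DDIT3* fell after siRNA (-0.46, adjusted p = 5.31e-06), opposite to *CEBPB* and *CEBPD*. Of 4 *EBF* relatives and partners, *ZNF423*, which marks committed preadipocytes in mice, rose after overexpression (0.79, adjusted p = 1.20e-04) and fell after siRNA (-1.16, adjusted p = 8.10e-06), the same directions as *EBF1*. *EBF3* fell after overexpression (-0.53, adjusted p = 6.14e-04), and the other 2 of the 4 (*EBF4* and *ZNF521*) did not pass there. After siRNA *ZNF423*, *ZNF521* and *EBF4* fell and *EBF3* did not pass.

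The proteins that work with *PPARG* moved in both directions. Of 17 tested receptor partners, coactivators and corepressors, 8 rose and 4 fell after siRNA (median 0.10), where 29.5% of all genes rose and 29.9% fell. After overexpression 3 rose and 6 fell (median -0.10), where 23.9% of all genes rose and 23.4% fell. *RXRA*, the partner with which the receptor binds DNA, fell after overexpression (-0.46, adjusted p = 1.68e-05) and after siRNA (-0.30, adjusted p = 8.79e-04). *RXRB* also fell in both, after siRNA (-0.64, adjusted p = 3.81e-06) and after overexpression (-0.41, adjusted p = 7.75e-04). *TLE3*, a cofactor that helps *PPARG* activate fat cell genes in mice, fell after overexpression (-0.48, adjusted p = 6.27e-05) and rose after siRNA (1.09, adjusted p = 7.10e-11), while *PPARG* fell in both. *PPARGC1A*, a coactivator of mitochondrial genes, rose after siRNA (1.62, adjusted p = 4.89e-05). It had 31 reads over the control libraries against 94 after siRNA, and was tested only through its siRNA libraries.

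Of 18 other regulators that promote adipogenesis, 2 rose and 9 fell after overexpression (median -0.14), where 23.9% of all genes rose and 23.4% fell. After siRNA 5 rose and 4 fell (median 0.08), near the shares of all genes (29.5% higher and 29.9% lower). *SREBF1*, which switches on fatty acid synthesis, had the largest change among them after overexpression, from 323 ± 19.8 CPM in the control to 102 ± 4.69 CPM (SD of 3 libraries), a log2 fold change of -1.66 (adjusted p = 1.34e-12). After siRNA its log2 fold change was -0.15 (adjusted p = 0.0979). *ARNTL*, a clock gene, rose after siRNA (1.28, adjusted p = 1.88e-11). Of 26 tested genes listed as regulators that hold adipogenesis back, 5 rose and 12 fell after overexpression (median -0.17), and 13 rose and 9 fell after siRNA (median 0.16). Those that rose after siRNA included *SOX9* (1.71, adjusted p = 7.46e-08), *MXI1* (1.53, adjusted p = 1.08e-12) and *TWIST1* (1.21, adjusted p = 8.68e-13). *SNAI2*, whose assignment to this list is not certain, fell after siRNA (-1.76, adjusted p = 6.31e-16). *TWIST2* fell after overexpression (-0.92, adjusted p = 1.03e-08).

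Genes that *PPARG* and *CEBPA* switch on in fat cells did not share the course of these factors. Of 28 such genes, 19 were tested. After siRNA, where both factors fell, 29.9% of all genes fell and 29.5% rose. Of the 19 targets 9 fell and 6 rose (median -0.08). Those that rose included *PCK1*, an enzyme of glyceroneogenesis (6.80, adjusted p = 2.25e-13), which had 4 reads over the control libraries and was tested only through its siRNA libraries. They also included *CFD*, the protease adipsin (3.60), *LPL*, lipoprotein lipase (2.68), and *ANGPTL4*, an inhibitor of that lipase (2.31, adjusted p = 1.52e-05). *PLIN1*, the lipid droplet protein perilipin, fell (-2.35, adjusted p = 0.0252), from 12 to 2 reads over 3 libraries. *LPL* went from 65.1 ± 8.30 to 418 ± 92.2 CPM while *PPARG* went from 7.45 ± 0.336 to 1.68 ± 0.172 CPM. After overexpression 5 targets rose, 3 fell and 11 did not pass (median 0.18), where 23.9% of all genes rose and 23.4% fell. Among the 5 was *PLIN1*, with 12 reads over the control libraries and 42 after overexpression. It was tested only through its overexpression libraries, so that the direction of this rise was fixed by the filter. *FASN*, fatty acid synthase, fell after overexpression from 878 ± 33.2 to 456 ± 8.78 CPM (-0.95, adjusted p = 5.19e-08).

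**Figure D5:**
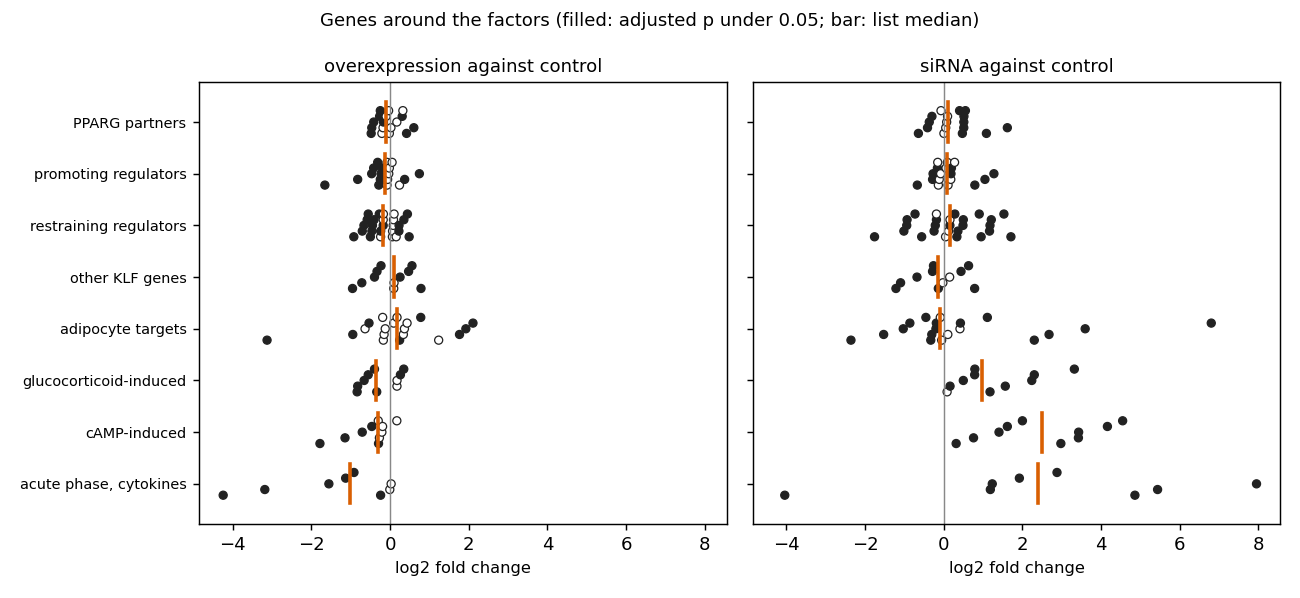
Log2 fold change of each tested gene (points, filled where the adjusted p is under 0.05) in 8 groups of genes around the factors, with the median of each group as a bar, after overexpression (left) and siRNA (right) against the control. After siRNA the medians of the glucocorticoid-induced (0.99), cyclic AMP-induced (2.49) and acute-phase (2.40) groups lie right of 0, and those of the regulators and targets lie near 0.

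*CEBPB*, *CEBPD* and *KLF15* are known responders to the inducing hormones, and other genes with this property were set beside them. In these comparisons 29.5% of all genes rose and 29.9% fell after siRNA, and 23.9% rose and 23.4% fell after overexpression. Of 10 genes induced by the glucocorticoid receptor, 9 rose and 1 did not pass after siRNA (median 0.99). After overexpression 2 of the 10 rose and 6 fell (median -0.37). The 1 that did not pass after siRNA was *FKBP5* (0.09, adjusted p = 0.223), which rose after overexpression (0.26, adjusted p = 0.0014). *SGK1*, a kinase gene, rose after siRNA (3.32, adjusted p = 5.29e-19), as did *PER1*, a clock gene (1.57, adjusted p = 1.24e-12). *CEBPD* took the direction of most of these genes in both comparisons, while *KLF15* did so after overexpression only, since it did not pass after siRNA. All 10 tested genes induced by cyclic AMP rose after siRNA (median 2.49), but *PPARGC1A* was tested only through its siRNA libraries. Among the 10 were *NR4A2*, a nuclear receptor (4.55), and the phosphodiesterase gene *PDE3B* (4.16). After overexpression 5 of them fell and 5 did not pass (median -0.29, or -0.08 without control replicate 3). Of these 5, *PDE4B* lost its call in 11 of 19 alternatives and *PDE3B* in 1. Of 8 tested acute-phase and cytokine genes with C/EBP sites, 7 rose and 1 fell after siRNA (median 2.40), and 6 fell and 2 did not pass after overexpression (median -1.02, or -0.66 without control replicate 3). Of these 6, *CXCL8* lost its call in 5 and *IL6* in 3 of 19 alternatives. The 1 that fell after siRNA was *LCN2* (-4.04), and *IL6* rose from 32.4 ± 13.1 to 941 ± 20.3 CPM.

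Markers of other cell types also differed between the groups. Of 14 macrophage markers, 5 had no count in the control, 5 after siRNA and 0 after overexpression. After siRNA 1 of 11 tested rose and 1 fell. After overexpression 8 of the 11 rose. *TYROBP* (-0.58, adjusted p = 0.0778 from edgeR), *SPI1* (0.38, adjusted p = 0.0612) and *ITGAM* (0.04, adjusted p = 0.842) did not pass there. Of the 8 that rose, *C1QA*, *C1QB*, *C1QC*, *CD163*, *SIGLEC1* and *CSF1R* had 0 to 7 counts over the control libraries. They were tested only through their overexpression counts of 106 to 351, so that their direction was fixed by the filter. The summed level of the 14 markers was 12.4 to 15.7 CPM in the control, 46.1 to 47.0 CPM after overexpression and 16.0 to 19.5 CPM after siRNA. Macrophages also express *PPARG*, *CEBPA* and *CEBPB*. Of 10 smooth muscle and pericyte markers, 8 fell and 1 rose after siRNA, and 6 rose and 1 fell after overexpression. *PPARG*, *CEBPA* and *EBF1* fell after siRNA as most of these markers did. After overexpression *PPARG* fell, *CEBPA* did not pass and *EBF1* rose. The markers summed to 11778 to 12582 CPM in the control, 13592 to 13684 CPM after overexpression and 1774 to 1971 CPM after siRNA. Of 10 endothelial markers 8 were too low to be tested, and their summed level, led by *PECAM1* in each group, was 34.1 to 35.6, 29.0 to 31.6 and 22.1 to 22.9 CPM in the same order. Of 11 tested fibroblast markers, 3 rose and 8 fell after overexpression and 7 rose and 3 fell after siRNA. Of 5 tested adipocyte markers, 2 rose and 1 fell after overexpression, and 1 rose and 3 fell after siRNA. *PLIN1*, 1 of the 2 that rose after overexpression, was tested only through its overexpression libraries. Among all genes 23.9% rose and 23.4% fell after overexpression, and 29.5% rose and 29.9% fell after siRNA. The part of the cell types in the changes of the 9 factors was not tested.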

How the data were processed

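Reads were aligned by the authors with HISAT. For every gene the deposited table gives 2 values a library: an estimated count and its FPKM. Which tool counted the reads, on which annotation and build, and whether strand was used, is not given in the sources used here. Each of the 18 value columns could be matched to a sample title. Of all estimated counts deposited by the authors, 5.38% were not whole, and all were rounded. All counts of the 9 factors were whole. Library totals are in the report, and factors with fewer than 100 counts in a library carry more counting error.

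The tests used edgeR 4.0.16 under R 4.3.3: counts scaled by TMM and filtered by filterByExpr at its defaults were fitted for all 9 libraries together, and quasi-likelihood F tests (robust) were made with Benjamini-Hochberg adjustment over 12721 genes. The study names no test for its sequencing data. A standard error is the size of the log2 fold change over the square root of F. Alternatives were library totals without TMM, other filters, the 2 compared groups only, a replicate block, each library left out, and fits with limma 3.58.1 and DESeq2 1.42.0. Summing the overexpression libraries was added after the data were seen.

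The 9 factors and all gene lists were chosen with earlier results of these data known. Named list genes are among the 4 largest changes that passed in each list and comparison, with a mean of at least 1 CPM, and some that the rule names are not reported here. For each factor the rule also names the 2 most similar genes, and the top marker of each cell type. *LEP*, *AQP7*, *ADIPOQ*, *PLIN1*, *CIDEC*, *FABP4* in the control, the named macrophage markers and *EBF* relatives that did not pass fall outside it. So do *SREBF1* and *RXRA* after siRNA, *RXRB* after overexpression and *FKBP5*. All of these were picked with their values in view. No coordinates are given, since the build of the files is not known here, and no sequences of these genes were used here.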

Additional observations from a re-analysis of the deposited data

How the results depend on the processing

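The number of factors that passed stayed at 5, 7 and 8 of 9 (overexpression against control, siRNA against control and overexpression against siRNA) with library totals, DESeq2, both filters, limma on log2(FPKM + 1) or log2(FPKM + 0.1), limma voom with group weights and the replicate number as a block. A threshold of at least 2-fold made it 0, 4 and 5. With each library left out in turn it lay between 5 and 6, 6 and 8, and 8 and 8. With the 2 compared groups only it was 6 after siRNA, where 56.1% of all genes passed. With the overexpression libraries summed to 1 it was 4, 6 and 8, where 26.3%, 54.7% and 52.6% of all genes passed. Same-numbered libraries did not deviate together (r from -0.110 to 0.178 over the 9 pairs), so the numbers were not taken to pair the samples. Over all alternatives 502 values of single factors kept their direction and their side of the threshold, 5 lost the call and 2 gained it, and those 7 are given beside the factors. The other 4, none called, changed sign when a siRNA library was left out. With each library left out in turn, the log2 fold change of *KLF15* after siRNA lay between -0.189 and 0.011 (without siRNA replicate 3), that of *EBF2* after siRNA between -0.012 (without siRNA replicate 2) and 0.26, and that of *EBF2* between overexpression and siRNA between -0.208 and 0.065 (without siRNA replicate 2, and 0.027 without siRNA replicate 1). The cause was not tested. Of the values of the named list genes, 35 lost the call and none turned direction in any alternative run. Summing the overexpression libraries lowered the genes that passed after overexpression from 6020 to 3437. With limma on log2(FPKM + 1) the genes with at least a 2-fold change numbered 200, 989 and 1266, against 573, 1932 and 2380. Libraries of 1 animal and the few reads of *PPARG* and *KLF5* limit the precision.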
